A study of Mus musculus with 24 samples.

Results

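The transcripts described here are those of 4 mouse Ifitm genes, Ifitm1, Ifitm2, Ifitm3 and Ifitm6. They were found by symbol in the authors' gene table, as 4 of 55487 genes, and all 4 passed the filter on low counts that left 14535 genes for testing. These genes were chosen from earlier results of the same data, with their KO-against-WT values known, so those values are given below as a description and without a test. Messenger RNA came from cultures of bone-marrow-derived dendritic cells, which are grown from marrow in medium with GM-CSF made by transfected J558 cells. The mice, of both sexes, were 8 to 10 weeks old. Cells were replated on days 4 and 7, and those in suspension were taken on days 7, 8, 9 and 10. WT cultures had the genotype ARPC4 Flox/Flox CD11c-Cre -/-, and KO cultures had ARPC4 Flox/Flox CD11c-Cre +/-, so both carried floxed Arpc4 alleles and neither received a treatment. Arpc4 encodes a subunit of the Arp2/3 complex, which builds branched actin networks, and Cre driven by CD11c acts in cells that have begun to express CD11c. There were 3 mice in each of the 8 groups of genotype and day, and by their numbers 6 mice gave all 24 libraries. The design asked how differentiation differs between control and KO cultures, with day 10 as the fully differentiated state.

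IFITM proteins are small membrane proteins that hinder the fusion of enveloped viruses with the membranes of the cell. IFITM3 is best known for restricting influenza virus in endosomes and IFITM2 also acts in endosomes, whereas IFITM1 lies largely at the cell surface. IFITM6 is a less studied member of the mouse family, known from myeloid cells. Type I interferon binds Ifnar1 and Ifnar2, and the receptor's kinases activate Stat2, which acts with Irf9 at the interferon-stimulated response element (ISRE). Type II interferon signals through Ifngr1 and Ifngr2 and acts at the gamma-activated site (GAS).

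The 4 genes lie together on chromosome 7 within 63088 bases (GENCODE M21 on GRCm38). Ifitm2 (ENSMUSG00000060591.9) spans 140954837 to 140955987 on the reverse strand, Ifitm1 (ENSMUSG00000025491.14) spans 140967221 to 140969825 on the forward strand, Ifitm3 (ENSMUSG00000025492.6) spans 141009586 to 141010770 on the reverse strand, and Ifitm6 (ENSMUSG00000059108.4) spans 141015699 to 141017924 on the reverse strand. All are protein-coding, with up to 3 exons in Ifitm1 and Ifitm6 and 2 in Ifitm2 and Ifitm3. Their longest coding sequences have 321 bases (Ifitm1), 435 bases (Ifitm2), 414 bases (Ifitm3) and 375 bases (Ifitm6). Ifitm2 and Ifitm3 are the most alike, with 75.8% identity over the aligned coding sequence, and identity in the other pairs was 57.5% to 63.5%. Ifitm2 overlaps the gene model Gm45717 on the same strand, and 34.9% of its 100-base transcript windows occur in Gm11951, Gm45717 or Gm8865, so reads could have been divided. Those gene models held at most 2 counts in any library, against 697 to 1551 counts for Ifitm2. The counter is not known here, so shared reads could also have been left out, and the level of Ifitm2 could be too low. No 100-base window of the other members was shared with another gene.

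Promoter windows of these genes are shown because the members differ in the interferon elements they hold. Each runs from 250 bases before to 50 bases after the RefSeq transcription start (RefSeq, GRCm38.p6), with the start at base 251. All 4 RefSeq starts lie inside the GENCODE models given above, by 26 bases in Ifitm2 and in Ifitm3, 855 bases in Ifitm1 and 1032 bases in Ifitm6, and the positions below are counted in the RefSeq windows. Capitals mark the ISRE core GAAANNGAAA in the Ifitm3 and Ifitm2 windows and the GAS core TTCNNNGAA in the Ifitm6 window, and the Ifitm1 window holds neither. Both strands were searched.
Ifitm3 promoter, chr7:141010695-141010994 (reverse strand): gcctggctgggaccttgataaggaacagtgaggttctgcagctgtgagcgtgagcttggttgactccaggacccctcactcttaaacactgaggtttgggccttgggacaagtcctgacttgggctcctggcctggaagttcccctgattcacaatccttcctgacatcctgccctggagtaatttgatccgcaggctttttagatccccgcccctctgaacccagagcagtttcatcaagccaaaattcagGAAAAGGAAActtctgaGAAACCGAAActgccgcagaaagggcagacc
Ifitm2 promoter, chr7:140955912-140956211 (reverse strand): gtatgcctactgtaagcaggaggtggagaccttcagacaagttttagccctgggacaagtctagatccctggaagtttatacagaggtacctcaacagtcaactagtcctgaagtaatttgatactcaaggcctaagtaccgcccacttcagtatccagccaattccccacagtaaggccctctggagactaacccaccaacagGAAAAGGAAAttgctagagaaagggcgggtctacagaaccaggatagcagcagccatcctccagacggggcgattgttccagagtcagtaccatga
Ifitm6 promoter, chr7:141016843-141017142 (reverse strand): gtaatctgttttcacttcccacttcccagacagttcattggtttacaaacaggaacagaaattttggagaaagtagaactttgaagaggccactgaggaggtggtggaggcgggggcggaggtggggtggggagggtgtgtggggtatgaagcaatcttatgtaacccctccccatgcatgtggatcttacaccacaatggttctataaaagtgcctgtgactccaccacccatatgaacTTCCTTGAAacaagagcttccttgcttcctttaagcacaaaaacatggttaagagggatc
Ifitm1 promoter, chr7:140967826-140968125 (forward strand): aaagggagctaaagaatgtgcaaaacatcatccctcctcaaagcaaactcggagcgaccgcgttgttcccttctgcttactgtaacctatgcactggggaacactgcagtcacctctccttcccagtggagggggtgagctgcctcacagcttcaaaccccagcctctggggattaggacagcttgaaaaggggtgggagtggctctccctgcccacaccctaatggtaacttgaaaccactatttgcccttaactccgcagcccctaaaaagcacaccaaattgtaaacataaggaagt
The Ifitm3 window held an ISRE core at bases 253 to 262 and another at bases 270 to 279, and also a GAS core (TTCTGAGAA) at bases 264 to 272, which shares 3 bases with the later ISRE core. The Ifitm2 window held 1 ISRE core at bases 205 to 214, with the same letters (GAAAAGGAAA) as the first of Ifitm3. The Ifitm6 window held 1 GAS core at bases 241 to 249. Of 32851 promoter windows of this length, 3.44% held the ISRE core and 8.3% held the GAS core. A match is only a match of letters, and binding was not measured.

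Libraries held 19952047 to 31049798 counts. Arpc4 was 11.6% to 17.9% lower in KO than in WT over the 4 days and was not called on any day (edgeR adjusted p 0.177 to 0.69). Dendritic cell markers were present in every group: the summed level of 15 markers ran from 2614 CPM (counts relative to the library's TMM-scaled total) in WT on day 7 to 9055 CPM in KO on day 10, and Xcr1 was the only marker of the list that had 0 counts in any library. The 16 neutrophil markers summed to 3439 to 8061 CPM over all libraries, and the 10 markers of T, NK and B cells to at most 11.57 CPM. Ddx3y, a Y-linked gene, was high in 1 library of each group. In WT this was mouse 63 on every day, but in KO its number was 64 for days 7 and 9, 68 for day 8 and 67 for day 10. The KO libraries numbered 64 held 67.7, 0, 63.2 and 0 CPM of Ddx3y on days 7 to 10. They held 0.16, 948, 0.24 and 685 CPM of Xist, which was high in every library without high Ddx3y. As labelled, a KO number therefore does not follow a single animal across days. Leaving out a KO number, below also called a mouse, removes the libraries of that number. The labels name 2 library kits but do not assign them to samples. In bulk RNA, fewer cells of a type and less RNA per cell cannot be told apart.

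Per gene length, Ifitm3 was the most abundant member in every library on day 7, and Ifitm1 in every library on day 10 except KO library 67, where Ifitm3 stood at 1189 TPM and Ifitm1 at 1021 TPM. In TPM, which corrects for length, Ifitm3 made up 62% of the summed level of the 4 genes in WT on day 7, Ifitm1 17.3%, Ifitm2 16.1% and Ifitm6 4.6% (means of 3 libraries). On day 10 the WT shares were 53.5% for Ifitm1, 36.1% for Ifitm3, 5.99% for Ifitm2 and 4.41% for Ifitm6. In KO the share of Ifitm1 went from 25% on day 7 (17.5% to 33.7% in single libraries) to 50.7% on day 10 (41.1% to 57%), and that of Ifitm3 from 56.9% (49.8% to 63.9%) to 40.2% (36.3% to 47.8%). The summed level was 1279 ± 44.5 TPM in WT on day 7 and 3329 ± 470 TPM on day 10 (SD, n = 3 each), and in KO it was 2040 ± 634 and 4068 ± 1540 TPM (SD, n = 3 each). On this scale the median of all genes itself moved by 0.21 (WT) and 0.25 (KO) in log2 between those days, so the shares within a library are the firmer reading. By mean TPM over the group, Ifitm1 went from rank 509 of all genes in WT on day 7 to rank 49 on day 10, and Ifitm3 from rank 124 to rank 72. Ifitm2 held rank 559 and rank 663 on those days, and Ifitm6 rank 2087 and rank 913.

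**Figure D1:**
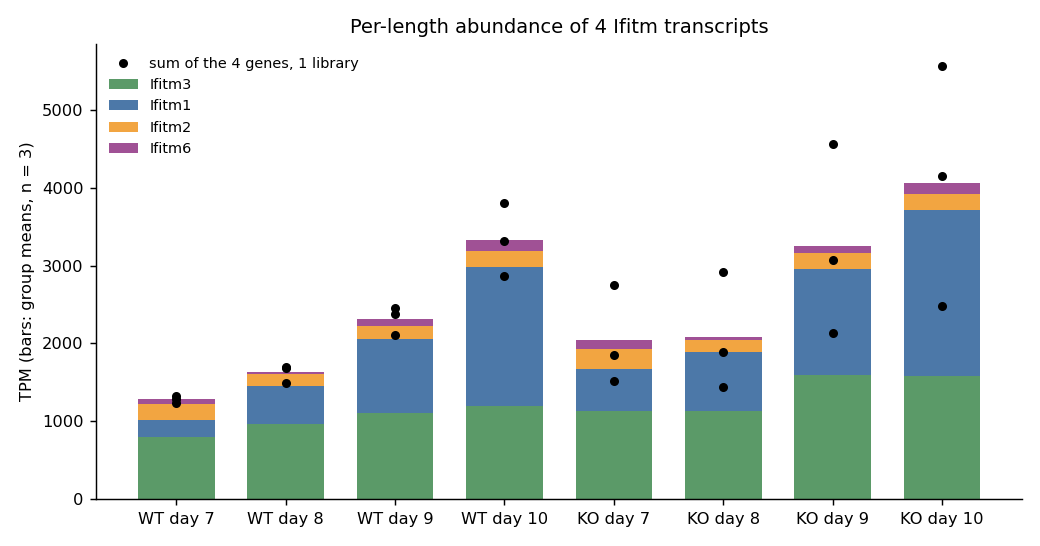
Stacked bars give the mean TPM of Ifitm3, Ifitm1, Ifitm2 and Ifitm6 in each group of genotype and day (n = 3 libraries), and dots give the sum of the 4 genes in each library. Most of the growth of the bars from day 7 to day 10 lies in Ifitm1, and the dots of the KO groups lie farther apart than those of the WT groups.

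Ifitm1, the member found mostly at the cell surface, rose through the culture in WT. Its level in the WT mice 63, 65 and 66 was 95.8, 76.1 and 103 CPM on day 7, 179, 155 and 187 CPM on day 8, 338, 291 and 345 CPM on day 9, and 564, 512 and 745 CPM on day 10. No WT value of a day overlapped with those of the day before. Between day 7 and day 10 in WT, the summed dendritic cell markers went from 2614 to 3316 CPM up to 5827 to 7872 CPM, and the 13 macrophage markers from 5061 to 5911 CPM down to 2151 to 2239 CPM. Day 10 exceeded day 7 by 6.62-fold (log2 fold change 2.73, SE 0.45, edgeR adjusted p 9.18e-05), and 37.0% of all genes were called in that comparison. The log2 fold changes of the single steps were alike, at 0.92, 0.91 and 0.90 (SE 0.43, 0.43 and 0.42), and none of the 3 steps was called on its own with all 24 libraries, which pool the spread of WT and KO. In fits chosen after seeing the data, with the 12 WT libraries alone, each step was called, at 0.94, 0.91 and 0.89 (SE 0.14 each, edgeR adjusted p 6.07e-05, 0.000452 and 0.00148). With the mouse as a block in those libraries the steps were called at 0.94, 0.91 and 0.88 (SE 0.07 each). That fit with the block called 7738, 2780 and 2331 of all genes in the 3 steps, against 6315, 785 and 523 with all 24 libraries. Each step was also called with only the libraries compared.

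In KO, the libraries numbered 64, 67 and 68 held 106, 351 and 180 CPM of Ifitm1 on day 7, 203, 413 and 132 CPM on day 8, 224, 645 and 429 CPM on day 9, and 948, 355 and 710 CPM on day 10. The highest KO library exceeded the lowest by 2.67- to 3.3-fold on each day, against 1.19- to 1.46-fold among WT libraries. The coefficient of variation ran from 44.4% to 59% over KO groups, against 9.05% to 20.2% over WT groups. Ifitm1 rose from day 7 to day 10 in KO by 3.16-fold (log2 fold change 1.66, SE 0.43, edgeR adjusted p 0.00507; 36.8% of all genes called). Without the libraries numbered 64, which were the lowest on day 7 and the highest on day 10, the value was 1.00 and no longer called, and without those numbered 67 it was 2.52. Without the KO library of high Ddx3y on each day it was 1.64 and was called.

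On day 7, Ifitm1 was 2.32-fold higher in KO (log2 fold change 1.21, SE 0.43), and every KO library lay above every WT library. The KO mean was 212 ± 125 CPM and the WT mean 91.7 ± 14.02 CPM (SD, n = 3 each). The values for days 8, 9 and 10 were 0.52, 0.41 and 0.14 in log2 (SE 0.42 each), with overlapping groups. Without the libraries numbered 67, the highest of KO on days 7 to 9 and the lowest on day 10, the values were 0.66, -0.04, 0.01 and 0.45. Without mouse 64 the day 7 value was 1.56. The KO library with high Ddx3y was the lowest of its group on every day, and without these libraries the differences were 1.54, 0.83, 0.73 and 0.45 on days 7 to 10.

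The order of the group means of Ifitm1 from low to high was WT day 7, WT day 8, KO day 7, KO day 8, WT day 9, KO day 9, WT day 10 and KO day 10. Only the first pair of neighbours in this order was separated, and each later pair overlapped. Within each KO day, the 3 libraries stood in the same order for Ifitm1 and for the summed dendritic cell markers. On day 10, for example, the marker sum was 5153 CPM in library 67, 6874 CPM in library 68 and 9055 CPM in library 64. The 9 mast cell and basophil markers had that order too on each KO day, with sums of 77.56, 110.8 and 119.6 CPM in those libraries on day 10. The macrophage markers had the opposite order to Ifitm1 on days 8, 9 and 10 in KO, with 2954, 2382 and 1934 CPM in those libraries on day 10, and on day 7 they had neither order. In WT the marker sum was lowest in mouse 63 on all 4 days, while Ifitm1 was lowest in mouse 65. The part of these markers in the levels of Ifitm1 was not tested.

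**Figure D2:**
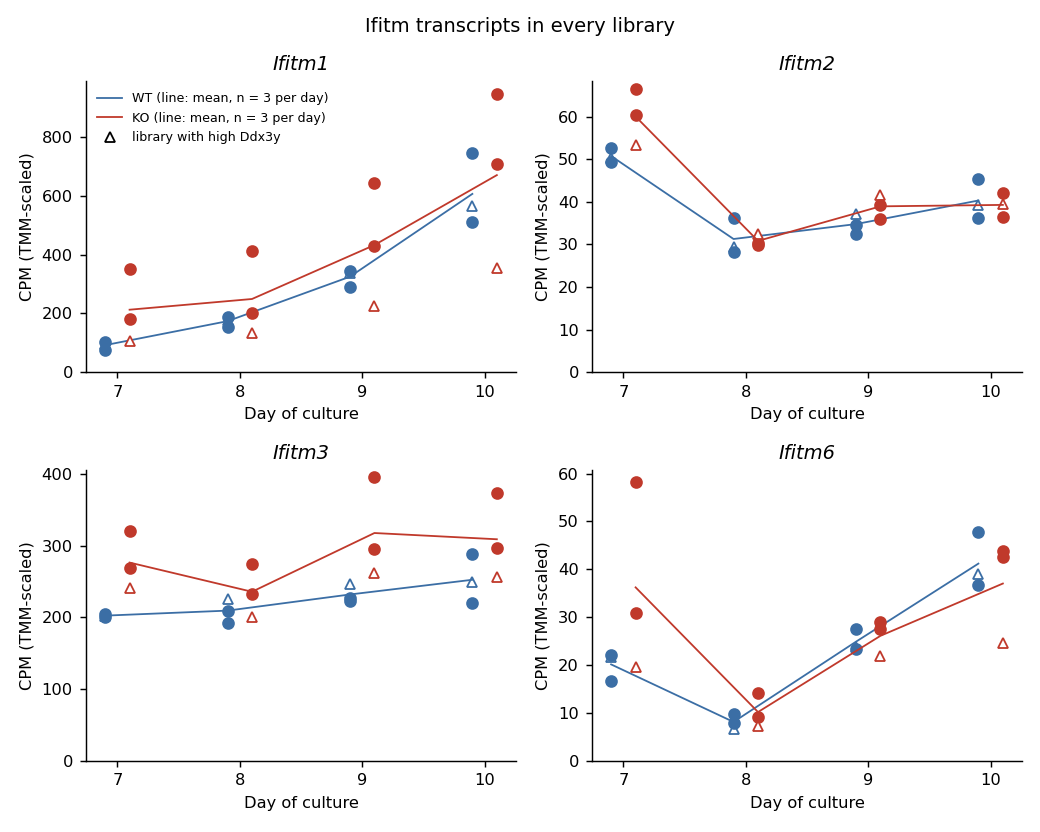
Each panel shows 1 gene, with its CPM in every library against the day of culture for WT (blue) and KO (red). Lines join the means of 3 libraries and open triangles mark the library with high Ddx3y, which was the lowest KO library for Ifitm1, Ifitm3 and Ifitm6 on all 4 days.

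Ifitm3, the endosomal restriction factor, varied least of the 4, with an SD of 0.28 in log2 CPM over the 24 libraries against 0.33 to 1.03 for the others. In the WT mice 63, 65 and 66 it stood at 201, 201 and 205 CPM on day 7, 226, 193 and 209 CPM on day 8, 247, 222 and 227 CPM on day 9, and 250, 219 and 288 CPM on day 10. All WT libraries of day 10 lay above those of day 7, by 0.32 in log2 (SE 0.15, edgeR adjusted p 0.11), which missed the threshold. It passed in 8 of 18 alternatives, among them the 12 WT libraries alone with the mouse as a block (0.32) or without it (0.33), the fit of only the libraries compared (0.33) and those without mouse 67 or without the KO libraries of high Ddx3y (0.33 and 0.32). The WT-only fits and that without the libraries of high Ddx3y were chosen after seeing the data. In KO the same comparison gave 0.16 (SE 0.15, adjusted p 0.443), with -0.09 without mouse 64 and 0.39, called, without mouse 67.

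The KO libraries 64, 67 and 68 held 240, 321 and 269 CPM of Ifitm3 on day 7, 232, 274 and 201 CPM on day 8, 261, 396 and 296 CPM on day 9, and 374, 256 and 297 CPM on day 10. All KO libraries lay above all WT libraries on days 7 and 9, and the groups overlapped on days 8 and 10. The log2 fold changes in KO were 0.45, 0.17, 0.45 and 0.29 on days 7 to 10 (SE 0.15 each), which are differences of 36.6%, 12.5%, 37% and 22.4%. Without mouse 67 the values on days 8 and 9 were 0.06 and 0.27, and without mouse 64 the value on day 10 was 0.15. Without the libraries of high Ddx3y the 4 values were 0.55, 0.28, 0.58 and 0.41. The group means ran from 202 CPM in WT on day 7 to 318 CPM in KO on day 9, and every pair of neighbours in their order overlapped. Within each KO day the libraries stood in the same order for Ifitm3 as for Ifitm1. They thus had the order of the summed dendritic cell markers and of those of mast cells and basophils. The macrophage markers had the opposite order on days 8, 9 and 10. In WT Ifitm3 was lowest in mouse 65 on every day, and the dendritic cell sum in mouse 63. The part of these markers in the levels of Ifitm3 was not tested.

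Ifitm2, which shares most coding sequence with Ifitm3, fell between day 7 and day 8 in both genotypes and differed little between them. In the WT mice 63, 65 and 66 it went from 50.3, 49.3 and 52.7 CPM on day 7 to 29.4, 28.3 and 36.2 CPM on day 8, and then stood at 37.2, 32.4 and 34.7 CPM on day 9 and 39.3, 36.3 and 45.3 CPM on day 10. In the KO libraries 64, 67 and 68 it went from 53.3, 60.3 and 66.5 CPM to 29.8, 30.2 and 32.4 CPM, and then stood at 41.6, 35.9 and 39.3 CPM on day 9 and 36.4, 39.5 and 42.0 CPM on day 10. Each day 8 library lay below each day 7 library of its genotype. The fall was 38.4% in WT (log2 fold change -0.70, SE 0.10, edgeR adjusted p 1.36e-05) and 48.7% in KO (-0.96, SE 0.10, adjusted p 3.00e-07). The shares of all genes called in these comparisons were 43.4% in WT and 42.0% in KO. Markers of other cells moved in the same step: the 12 monocyte markers summed to 2173 to 2816 CPM on day 7 and 792 to 853 CPM on day 8 in WT, and to 2553 to 3083 and 744.3 to 1192 CPM in KO. The sum of the 13 macrophage markers was 5061 to 5911 CPM on day 7 and 3527 to 3878 CPM on day 8 in WT. In KO it was 4353 to 7223 CPM and then 2493 to 4807 CPM. This sum does not speak for each gene. Of 12 tested macrophage markers, 8 were higher on day 8 in WT, with 4 called as higher and 3 as lower. In KO 4 of the 12 were higher, with 2 called as higher and 4 as lower. The 9 mast cell and basophil markers summed to 84.94 to 108.7 CPM and then 122 to 176.2 CPM in WT, and to 92.76 to 270.6 and 144.6 to 262.4 CPM in KO. Of the monocyte list Ly6c1, and of the macrophage list Vsig4, had 0 counts in some libraries. The part of these markers in the fall of Ifitm2 and in that of Ifitm6 was not tested.

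By day 10 Ifitm2 was still below day 7, with log2 fold changes of -0.33 in WT (SE 0.10, edgeR adjusted p 0.0131) and -0.61 in KO (SE 0.10, adjusted p 9.52e-05). The WT change was not called without mouse 63 (-0.31) or mouse 65 (-0.28). On TPM it was -0.05 and not called, on a scale where the median gene moved by 0.21. The KO-against-WT log2 fold changes were 0.24, -0.02, 0.16 and -0.04 on days 7 to 10 (SE 0.10 each). On day 7 the KO libraries lay just above the WT libraries, with 53.3 CPM as the lowest KO value and 52.7 CPM as the highest WT value. In the order of the group means, WT day 7 lay above WT day 10 without overlap and KO day 7 above WT day 7, and every other pair of neighbours overlapped.

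Ifitm6, by TPM the least abundant of the 4 in every group, dipped on day 8 and rose again on day 9. The WT mice 63, 65 and 66 held 21.7, 16.7 and 22.03 CPM on day 7, 6.64, 7.89 and 9.81 CPM on day 8, 23.7, 23.3 and 27.6 CPM on day 9, and 39.1, 36.7 and 47.8 CPM on day 10. The KO libraries 64, 67 and 68 held 19.6, 58.2 and 30.9 CPM on day 7, 9.16, 14.2 and 7.18 CPM on day 8, 21.8, 27.5 and 29.0 CPM on day 9, and 42.5, 24.6 and 43.9 CPM on day 10. In both genotypes the day 8 libraries lay below all libraries of day 7 and of day 9. The fall to day 8 was 59.8% in WT (log2 fold change -1.31, SE 0.31, edgeR adjusted p 0.00206) and 71.7% in KO (-1.82, SE 0.31, adjusted p 8.65e-05). The rise to day 9 was 3.07-fold in WT (1.62, SE 0.31, adjusted p 0.00784) and 2.55-fold in KO (1.35, SE 0.31, adjusted p 0.0281).

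The share of all genes called in the step from day 8 to day 9 was 5.40% in WT and 2.33% in KO. The rise of Ifitm6 in WT was not called without mouse 63 (1.52), mouse 65 (1.65) or mouse 66 (1.70), and that in KO was not called without mouse 68 (1.08), with any 1 WT mouse left out (1.35 each) or with only the libraries compared (1.35, SE 0.25, edgeR adjusted p 0.198). The fall in WT was not called without mouse 63 (-1.12). Day 10 exceeded day 7 by 2.04-fold in WT (log2 fold change 1.03, SE 0.30, adjusted p 0.0102), a change that was not called without mouse 63 (1.13), mouse 65 (1.00) or mouse 66 (0.98). With the 12 WT libraries alone, a fit chosen after seeing the data, it was 1.04 and the rise to day 9 was 1.62, both called. The step to day 10 was called there as well (0.72, SE 0.14, edgeR adjusted p 0.00609). In KO, day 10 against day 7 gave 0.03 (SE 0.29, adjusted p 0.944), with -0.38 without mouse 64 and 0.77, called, without mouse 67.

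The KO-against-WT log2 fold changes of Ifitm6 were 0.85, 0.34, 0.07 and -0.15 on days 7 to 10 (SE 0.30, 0.32, 0.30 and 0.29), and the groups overlapped on every day. Without mouse 67 the values on days 7 and 8 were 0.34 and 0.03, and without mouse 64 the day 7 value was 1.17. In the order of the group means, only day 8 KO and day 7 WT, and day 7 WT and day 9 WT, were neighbours without overlap. The 16 neutrophil markers summed to 3439 to 5239 CPM in WT on day 7, 3602 to 4386 CPM on day 8, 5306 to 5614 CPM on day 9 and 5817 to 7865 CPM on day 10. In KO their sum ran from 4154 to 8061 CPM on day 7, from 3990 to 5073 CPM on day 8, from 5256 to 5889 CPM on day 9 and from 5033 to 6644 CPM on day 10. Gene by gene, 6 of the 16 were higher on day 8 than on day 7 in WT and 2 in KO. In that step 4 (WT) and 6 (KO) were called as lower, and 1 and 0 as higher, where 43.4% and 42.0% of all genes were called. From day 8 to day 9, 13 of the 16 were higher in each genotype and 2 were called as higher in each. In KO the 3 libraries stood in the same order for the sum and for Ifitm6 on days 7 and 10. On day 8 the sum was lowest in library 64 and Ifitm6 in library 68, and on day 9 the sum was lowest in library 67 and Ifitm6 in library 64. The summed dendritic cell markers, and those of mast cells and basophils, had the order of Ifitm6 on days 7 and 8 in KO and another order on days 9 and 10. All 16 markers had counts in every library, and the part of these lists in the levels of Ifitm6 was not tested.

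**Figure D3:**
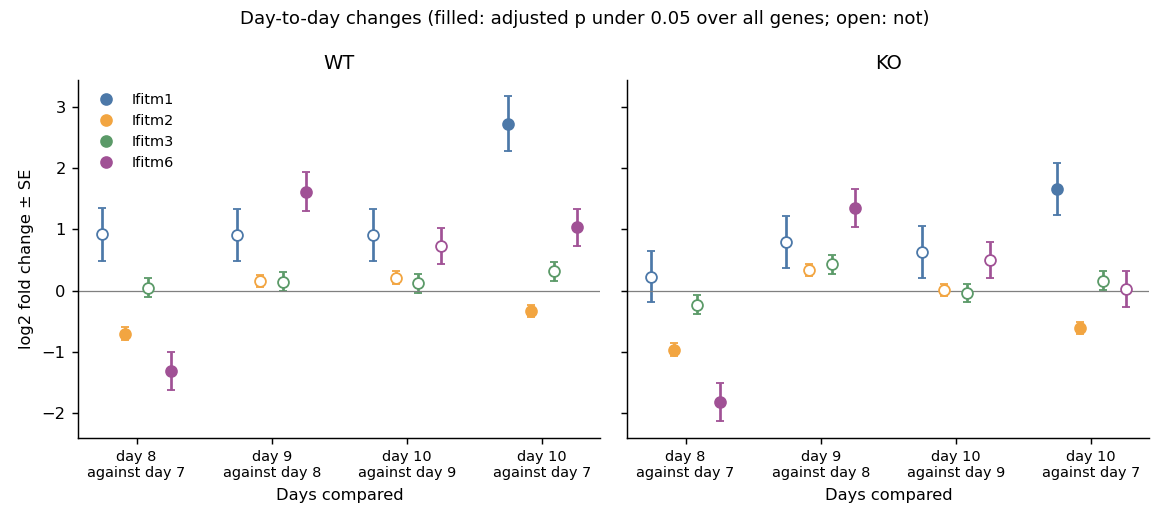
Points give the log2 fold change (± SE) of each member between days, in WT on the left and KO on the right, with filled points for an edgeR adjusted p under 0.05 over all genes. Ifitm2 and Ifitm6 were called as lower on day 8 than on day 7 in both genotypes, and Ifitm1 as higher on day 10 than on day 7.

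Over the 4 members, 2 were called in the step from day 7 to day 8 in each genotype, where 43.4% (WT) and 42.0% (KO) of all genes were called. In the step to day 9, 1 was called in each, where 5.40% and 2.33% of all genes were, and DESeq2 called 1 in WT and 2 in KO. In the step to day 10, 0 were called in either (edgeR, with 3 members in WT and 0 in KO at an unadjusted p under 0.05, and 0 in either by DESeq2). With all 24 libraries the shares of all genes called in that last step were 3.60% in WT and 0.0963% in KO. Without the libraries numbered 67, Ifitm1 (1.33) and Ifitm6 (0.75) were called in that step in KO. That fit called 2090 of all genes in the step, against 14 with all libraries. From day 7 to day 10, 3 members were called in WT and 2 in KO. These counts lie within what shares of 37.0% and 36.8% of all genes allow for a list this short, so they say little about the members as a set.

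KO against WT, the members are given by their values alone, because that contrast served to choose them. The shares of all genes called on days 7 to 10 were 1.45%, 0.00688%, 0.00688% and 0.0138%. The KO libraries lay above all WT libraries for 3 members on day 7 and for 1 on day 9, where 11.9% and 7.62% of all genes did so, and for 0 members on days 8 and 10, where 4.40% and 5.47% did, and nothing is read from these counts. The difference between genotypes in the change from day 7 to day 10 was -1.07 for Ifitm1 (SE 0.60), -0.28 for Ifitm2 (SE 0.14), -0.16 for Ifitm3 (SE 0.22) and -0.998 for Ifitm6 (SE 0.42) in log2, as KO minus WT. These values hold the contrast of the choice and are given without a test. The share of all genes called for this difference was 0.0619%. Without mouse 67 the values for Ifitm1 and Ifitm6 were -0.21 and -0.27, and without mouse 64 they were -1.73 and -1.42.

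The other Ifitm genes were hardly present. Ifitm5, a bone-cell member that lies next to Ifitm2, had 0 to 9 counts per library and Ifitm7 had 0 to 2, and neither passed the filter on low counts. Ifitm10 had 6 to 31 counts and was not called in any comparison. Its KO-against-WT log2 fold changes ran from -0.50 on day 10 (SE 0.47) to 0.52 on day 7 (SE 0.50).

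Ligands of the interferon pathway were at or near 0. Of 21 interferon genes, 16 had no count in any library. Ifnb1, which encodes interferon beta, had at most 4 counts in a library and 16 over all 24 libraries. Ifnk reached 2 counts, and Ifna2, Ifnz and Ifng reached 1. These totals set the limit of what could be seen, and none of the ligands passed the filter.

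The receptors were expressed. Of 9 receptor and kinase genes, 2 rose and 6 fell from day 7 to day 10 in WT, and 2 rose and 6 fell in KO, where 37.0% (WT) and 36.8% (KO) of all genes were called. Ifnar1 and Ifnar2, the receptor chains for type I interferon, fell by 0.50 and 0.75 on the log2 scale in WT (SE 0.07 each, edgeR adjusted p 3.17e-05 and 1.17e-07). Ifngr1 and Ifngr2, the chains for type II interferon, fell by 0.51 and 0.17 in WT (SE 0.14 and 0.06, adjusted p 0.00692 and 0.0268). All 4 chains fell in KO as well, by 0.34 to 0.72 on the log2 scale. KO against WT, 0 of the 9 were called on any day by edgeR or DESeq2 (2, 1, 1 and 0 at an unadjusted p under 0.05 in edgeR), where 1.45%, 0.00688%, 0.00688% and 0.0138% of all genes were, and their median log2 fold change was 0.14, 0.08, 0.08 and -0.01 on days 7 to 10, beside -0.01 to 0.00 for all genes.

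Among 10 transcription factors of the pathway, 0 were called between genotypes by edgeR on any day, with 6, 2, 4 and 3 at an unadjusted p under 0.05 on days 7 to 10, and DESeq2 called 2, 0, 1 and 0. Irf7, which drives interferon genes and is itself induced by interferon, had KO-against-WT log2 fold changes of 0.97, 0.58, 1.27 and 0.76 on days 7 to 10 (SE 0.26, 0.25, 0.26 and 0.26), with adjusted p from 0.0651 to 0.775. The values of Stat2 were 0.43, 0.03, 0.30 and 0.18, while Irf9, which acts with Stat2, gave 0.27, 0.15, 0.25 and 0.24. From day 7 to day 10, Stat2 rose in WT (0.89, SE 0.14, adjusted p 4.50e-05) and in KO (0.64, SE 0.14, adjusted p 0.00111). Usp18, which shuts off the type I receptor, was called as higher in KO on day 7 (0.89, SE 0.17, edgeR adjusted p 0.0148), as 1 of 6 feedback inhibitors. DESeq2 called 1, 0, 1 and 1 of the 6 on days 7 to 10. On those days edgeR called 1.45%, 0.00688%, 0.00688% and 0.0138% of all genes, and 2280, 859, 1185 and 1061 genes had an unadjusted p under 0.05. DESeq2 called 98 of all genes on day 9, and at most 833, 284 and 82 on days 7, 8 and 10. Without mouse 66 edgeR called no listed pathway gene on day 7, Usp18 included. The lists were chosen with earlier results of these data known, so these calls are a description.

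Most of the 40 other antiviral interferon-stimulated genes of the list had higher values in KO on each day. On days 7 to 10, 39, 37, 40 and 36 of them were higher in KO, and 11, 0, 0 and 0 were called, where 1.45%, 0.00688%, 0.00688% and 0.0138% of all genes were called by edgeR. In edgeR 25, 4, 31 and 16 of the 40 had an unadjusted p under 0.05, and DESeq2 called 18, 0, 11 and 0. Of all 14535 genes, 2280, 859, 1185 and 1061 had such a p-value in edgeR. DESeq2 called 98 of all genes on day 9. On days 7, 8 and 10 it called at most 833, 284 and 82, the highest counts of any alternative. The median log2 fold changes of the 40 were 0.45, 0.21, 0.47 and 0.25, and the medians of the 4 Ifitm genes were 0.65, 0.25, 0.29 and 0.05. The list was chosen with such results of these data known, so this is a description. Isg15, a ubiquitin-like modifier, had values of 0.64, 0.56, 0.93 and 0.67, and Ifit3, which binds foreign RNA, had 1.11, 0.46, 0.90 and 0.29. Mx1, a GTPase against influenza virus, had 0.57, -0.02, 0.46 and 0.59, and Bst2, which tethers budding virus, had 0.20, 0.07, 0.27 and 0.16. Over all 76 tested genes of the pathway lists and partners, the number called on day 7 was 12 with all libraries, 0 without mouse 66 and 26 without the KO libraries of high Ddx3y. Of all genes, 211, 11 and 833 were called in those fits.

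**Figure D4:**
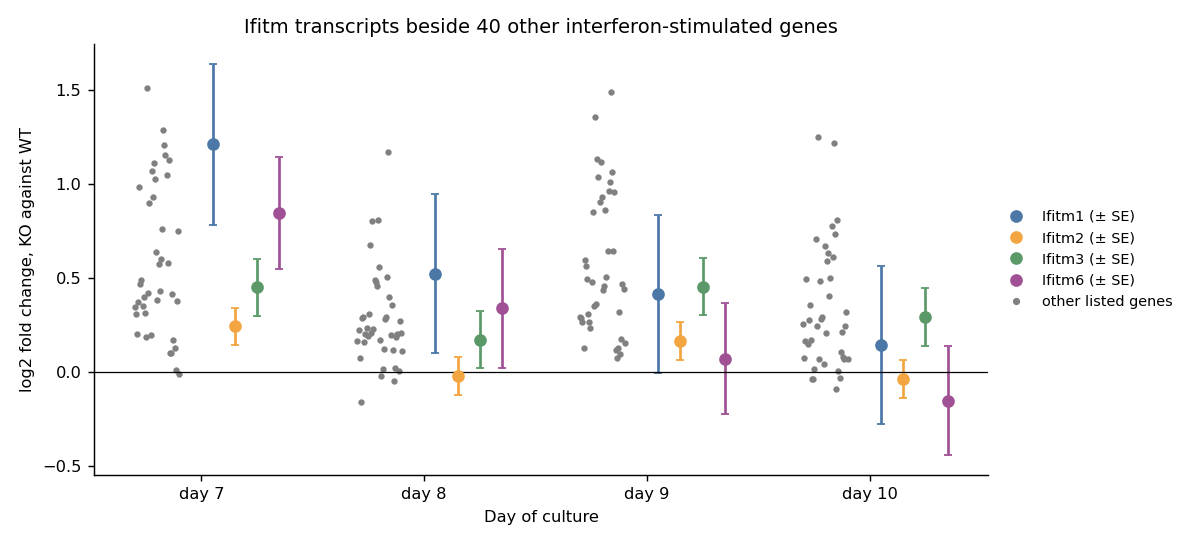
Log2 fold changes of KO against WT on each day are shown for the 4 Ifitm genes (coloured points with SE) and for 40 other antiviral interferon-stimulated genes (grey points). Most grey points lie above 0 on each day, and the points of Ifitm2 and Ifitm6 lie below 0 on day 10.

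The same 40 genes also moved with the days. From day 7 to day 8 in WT, 36 of the 40 were higher and 23 were called as higher (median log2 fold change 0.69), where 21.5% of all genes were called as higher. In that step Ifitm2 and Ifitm6 fell, Ifitm1 stood at 0.92 without overlap and Ifitm3 at 0.05. From day 8 to day 9 in WT, 36 of the 40 were lower, 11 were called as lower and 32 lay below day 8 without overlap (median -0.39), where 2.34% of all genes were called as lower and 16.3% lay below without overlap. In that step all 4 Ifitm genes had positive values and Ifitm6 rose. In KO, 34 of the 40 were higher on day 8 than on day 7, with 16 called as higher and 2 as lower (median 0.38; 21.1% of all genes called as higher), and 33 were lower on day 9 than on day 8, with 0 called by edgeR or DESeq2 and 8 at an unadjusted p under 0.05 (median -0.14; 2.33% of all genes called). The difference between the Ifitm genes and the list was not tested.

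Genes whose levels across the 24 libraries were most like each member were found by the root mean square (RMS) difference of log2 CPM, after centring each gene, over 10487 genes with a mean log2 CPM above 1. The libraries share their days and mice, so this is a description. Nearest to Ifitm1 were Spn, Ciita, Ccnf, Haao and Kif18b, with RMS differences of 0.19 to 0.25, where the median over all genes was 1.03. Spn, a cell-surface sialoprotein of leukocytes, had WT means of 20.2 CPM on day 7 and 133 CPM on day 10, and KO means of 38.6 and 141 CPM. Ciita, which switches on MHC class II genes, had WT means of 16.2 and 122 CPM on those days, and KO means of 35.8 and 160 CPM.

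Nearest to Ifitm2 were Tnfaip8l2, Pfkfb4, Ethe1, Pold4 and Prdx5, with RMS differences of 0.09 to 0.13 against a median of 0.39. Nearest to Ifitm3 were Nbeal2, Psmb9, Psmb8, Plekhg3 and Clasp1, at 0.13 to 0.16 against 0.36. Psmb8 and Psmb9 are catalytic subunits of the immunoproteasome. Nearest to Ifitm6 were Mogat2, Fcnb, Ly6a2, E2f2 and Prg3, at 0.27 to 0.32 against 0.91. No member was among the 5 nearest genes of another member. Seen from Ifitm6, Ifitm3 ranked 751 and Ifitm2 ranked 791 of all genes by likeness, and seen from Ifitm1 the nearest member was Ifitm3 at rank 992. Ifitm2 and Ifitm3 differed by an RMS of 0.395, which put Ifitm3 at rank 5304 seen from Ifitm2 and Ifitm2 at rank 6683 seen from Ifitm3, so neither had a member nearer than the median gene. Ifitm1 ranked 10264 seen from Ifitm2 and 10091 seen from Ifitm3.

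Of 15 other protein-coding genes within 100000 bases of the cluster, 8 were tested. KO against WT, 0 of the 8 were called on any day by edgeR or DESeq2 (1, 0, 0 and 0 at an unadjusted p under 0.05), and their median log2 fold change was 0.04, 0.02, 0.01 and -0.01 on days 7 to 10. From day 7 to day 10, 4 rose and 1 fell in WT, and 4 rose and 0 fell in KO, where 37.0% and 36.8% of all genes were called. Pkp3, which encodes a desmosome plaque protein, rose by 1.77 in WT (SE 0.42, edgeR adjusted p 0.00238) and by 1.17 in KO (SE 0.39, adjusted p 0.0253). Psmd13, a subunit of the proteasome's regulatory particle, rose by 0.27 in WT (SE 0.07, adjusted p 0.00388) and by 0.21 in KO (SE 0.07, adjusted p 0.0193). Bet1l, a vesicle fusion protein, was the gene that fell in WT (-0.31, SE 0.12, adjusted p 0.0402). The other risers were B4galnt4 (3.36 in WT and 2.71 in KO, SE 0.64 and 0.67) and Sigirr, an inhibitor of interleukin-1 receptor signalling (0.82 and 0.79, SE 0.30 and 0.29).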

How the data were processed

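Per the labels' protocols, poly(A) RNA was made into stranded libraries with kits of 2 kinds. What the authors deposited is raw counts for each gene, TPM values, and symbols for the identifiers. The submitters' processing notes name FastQC 0.11.9, STAR 2.6.1, DESeq2 1.22.2 and the build mm10, and the counter, its strand setting and the annotation are not given in the sources used here. Of 55487 identifiers, 55094 matched GENCODE M21 (GRCm38) with the same version, and positions are from it, counted from 1.

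Counts were fitted with edgeR 4.0.16 in R 4.3.3: filterByExpr, TMM factors, 1 coefficient per group, all 24 libraries, 16 residual degrees of freedom, the quasi-likelihood test and a Benjamini-Hochberg threshold of 0.05 over 14535 genes. CPM use TMM-scaled totals. The deposited TPM served only for comparing levels between genes and as an alternative fit. Reads were amplified by PCR and carry no molecular identifiers, so counts are not independent molecules. The members and the lists were chosen with earlier results of these data known. Named with values were all members, other Ifitm genes, the pathway genes Stat2, Irf9, Irf7, the 4 receptor chains, Ifnb1, Usp18, Bst2, Isg15, Ifit3 and Mx1, partner genes that were called, protein-coding genes within 100000 bases, and the 5 nearest genes by likeness. Genes outside this rule (Arpc4, Xcr1, Ly6c1, Vsig4, Cd9, Cd81, Ddx3y, Xist, Ifnk, Ifna2, Ifnz, Ifng, Gm45717, Gm11951 and Gm8865) were named after their values were seen. Some items are not reported here.

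Labels number the mice across days. Same-numbered libraries of 2 days correlated in their deviations from group means by 0.359 on average in WT and by 0.00569 in KO, over 11002 genes, so the number was used as a block only as an alternative. The 12 WT libraries were also fitted alone, with and without it. Other alternatives were DESeq2 1.42.0 and its size factors, 2 filters, only the groups compared, limma 3.58.1 on log2(TPM + 1) and log2(TPM + 0.1), and each mouse left out. Within groups, each of 24 library pairs differed beyond counting noise (chi-square over its degrees of freedom 7.1 to 125). The labels give a mouse to each library. P-values of the main fit measure the spread between the libraries of a group, pooled over groups. That fit takes libraries of the same number on different days as independent. Coding sequences were aligned with Biopython 1.88.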

Additional observations from a re-analysis of the deposited data

How the results depend on the processing

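The number of members called was recomputed under 16 alternatives for each comparison between days, and 18 for those within WT. For day 8 against day 7 in WT it was 1 to 3 with a mouse left out, and 3 with no filter, with only the libraries compared, with exchanged KO numbers, without the KO libraries of high Ddx3y and with the 12 WT libraries alone. For day 9 against day 8 in WT it was 2 with only the libraries compared, with exchanged KO numbers, without the KO libraries of high Ddx3y and with the WT libraries alone, and 0 to 2 with a mouse left out. In KO the same step gave 2 by DESeq2 and on TPM with either pseudocount, 0 with only the libraries compared, 3 with exchanged KO numbers and 0 to 1 with a mouse left out. For day 10 against day 9 in WT it was 2 with only the libraries compared, without the libraries of high Ddx3y and with the WT libraries alone, 1 with exchanged KO numbers, and 0 to 2 with a mouse left out; in KO it was 0 to 2 with a mouse left out. For day 10 against day 7 it was 1 to 4 in either genotype with a mouse left out, and 4 in WT with only the libraries compared, with exchanged KO numbers, without the libraries of high Ddx3y and with the WT libraries alone. The number of all genes called also moved over the alternatives, so the member counts cannot be read alone. For day 8 against day 7 it ran from 4397 to 7738 in WT and from 4526 to 6953 in KO. For day 9 against day 8 the ranges were 17 to 2780 and 0 to 1295. For day 10 against day 9 they were 0 to 2331 and 0 to 2090, and for day 10 against day 7 they were 3255 to 6924 and 3201 to 7499. The direction of Ifitm1 from day 7 to day 10 was positive in both genotypes under each alternative run, and that of Ifitm2 negative. With the mouse number as a replicate block the counts of called members were 2, 1, 0 and 3 for the WT comparisons and 2, 1, 0 and 2 for the KO comparisons. Its consensus correlation over all libraries was 0.00464, so this block could hardly change a call, and it was 0.23 with KO numbers 64 and 68 exchanged on day 8 and 64 and 67 on day 10. With the mouse as a replicate block in the 12 WT libraries alone the counts were 3, 2, 2 and 4, as they were in those libraries without the block. The WT-only fits, the exchanged block and the fit without the libraries of high Ddx3y were chosen after seeing the data. KO against WT, the day 7 log2 fold change ran over all 16 alternatives from 0.66 to 1.56 for Ifitm1, 0.17 to 0.34 for Ifitm2, 0.35 to 0.57 for Ifitm3 and 0.34 to 1.17 for Ifitm6. The sign changed in some alternatives for Ifitm1 and Ifitm2 on days 8 and 10 and for Ifitm6 on days 9 and 10. The difference between genotypes in the change from day 7 to day 10 ran from -1.73 to -0.21 for Ifitm1, -0.418 to 0.0635 for Ifitm3 and -1.42 to -0.27 for Ifitm6 with a mouse left out. Counts of all genes called on day 7, KO against WT, ran from 11 without mouse 66 to 833 without the KO libraries of high Ddx3y (211 with all libraries). The causes of these shifts were not tested.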

Other observations

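Partner genes of IFITM proteins were also measured. Of 11 genes that modify, traffic or bind these proteins, 0 were called between genotypes by edgeR or DESeq2 on any day (4, 1, 0 and 0 at an unadjusted p under 0.05 in edgeR), and 5 were called from day 7 to day 10 in WT and 4 in KO, where 37.0% and 36.8% of all genes were. Fyn, a kinase that phosphorylates IFITM3, rose by 1.03 in WT and 1.14 in KO on the log2 scale (SE 0.25 each, adjusted p 0.00302 and 0.00136). Nedd4, a ubiquitin ligase that targets IFITM3 for turnover, rose by 0.86 in WT and 1.16 in KO (SE 0.23 each, adjusted p 0.00633 and 0.000606). Vapa, a membrane contact protein bound by IFITM3, fell by 0.39 in WT and 0.29 in KO (SE 0.06 each, adjusted p 6.90e-05 and 0.00121). Zdhhc20, a palmitoyltransferase, and Stx7, an endosomal fusion protein, fell by 0.42 and 0.24 in WT (SE 0.11 and 0.08, adjusted p 0.00638 and 0.0156), and Vcp, an unfolding ATPase, rose by 0.16 in KO (SE 0.06, adjusted p 0.0477). Stx7 rose from day 7 to day 8 in KO by 0.35 and fell to day 9 by 0.34, and Vcp rose from day 7 to day 8 by 0.18 in WT and 0.24 in KO. In that step Zmpste24, a membrane protease, rose by 0.29 in WT and 0.38 in KO, Ap2m1, a clathrin adaptor subunit, by 0.58 and 0.47, and Vamp8, an endosomal fusion protein, by 0.49 in WT. Setd7, a lysine methyltransferase, fell by 0.60 in WT and 0.54 in KO in that step, and rose by 0.40 from day 9 to day 10 in WT.

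Cd81, a tetraspanin known to associate with IFITM proteins, was present at 139 to 172 CPM in group means, and Cd9, a related tetraspanin, stood at 565 to 985 CPM. Cd9 fell from day 7 to day 8 by 0.62 in WT and 0.67 in KO on the log2 scale (SE 0.13 each, edgeR adjusted p 0.000733 and 0.0004).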
